A study of Drosophila melanogaster with 24 samples.

Results

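Cytochrome P450s are heme-containing monooxygenases that insert an oxygen atom into small lipophilic molecules, and in flies they make and break down steroid hormones, build cuticular lipids and clear plant toxins and insecticides. Enzymes of the CYP2, CYP3 and CYP4 clans sit in the endoplasmic reticulum and draw electrons from the reductase Cpr and cytochrome b5, whereas the mitochondrial clan is served by the ferredoxins Fdx1 and Fdx2 and the ferredoxin reductase dare. The members described here were the rows of the gene table whose FlyBase symbol starts with Cyp and a digit, of which there were 86 among 17606 genes. This rule also caught Cyp1 and Cyp40, which encode cyclophilins and not P450s, and they were set aside, leaving 84 P450 genes. Of these, 80 reached 10 normalized counts in at least 3 of the 23 libraries used and were tested together with the other genes that did, 12493 in all. By clan, the 80 comprised 37 CYP3, 30 CYP4, 9 mitochondrial and 4 CYP2 genes. A normalized count is the number of reads on a gene divided by a library's size factor.

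The libraries were made from total, ribosome-depleted RNA of whole adult heads, 10 to 25 flies to a library, and read as 100 nt pairs. The fly makes histone H3.3 from His3.3A and from the X-linked His3.3B. All flies lacked functional H3.3A, carrying the null allele H3.3A2x1 over the deficiency Df(2L)Bsc110, and all bore y and w on the X. The H3.3Adelta flies were otherwise wild type for H3.3B, and the H3.3BK36R flies carried a missense change of lysine 36 to arginine in H3.3B, so that no H3.3 with lysine 36 remained. Females and males of each genotype were taken 0 to 2 days (young) and 21 to 25 days (old) after eclosion, with 3 libraries in each of the 8 groups. The comparisons ask how P450 expression in the head differs with age, with sex and with the state of H3.3 lysine 36, since the study connects this residue with adult lifespan and with gene expression in ageing heads.

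Between 21263006 and 42763126 reads fell on genes in the 23 libraries (median 27763237). Young male H3.3BK36R replicate 2, which stood apart from the other libraries in an earlier analysis of these data, was left out, and its P450 values far above those of the other libraries are given in the closing section. The neuronal genes elav, nSyb, Syt1 and brp and the photoreceptor genes ninaE and trp were read in every library. The 4 neuronal genes summed to 80165 normalized counts in 1 of the 2 young male H3.3BK36R libraries used, below every other library used, and to 162446 in the other. His3.3A, the gene every fly lacked a functional copy of, still gave 269.6 to 525 normalized counts, so its reads do not check the labels. His3.3B gave 18412 to 26536, and the K36R change cannot be seen in a gene-level table. In 6 libraries, namely replicate 2 of young male H3.3Adelta, old female H3.3Adelta and young female H3.3BK36R and replicate 3 of young male, old female and old male H3.3BK36R, more than 50% of the 4344 autosomal genes below the filter held at least 1 read, and these are called the libraries with reads on silent genes. Reads of the chorion gene Cp38, made in the ovary, exceeded 100 normalized counts in old female H3.3Adelta replicate 1 and old male H3.3Adelta replicates 1 and 2, and the yolk protein gene Yp1 exceeded 10000 in old male H3.3BK36R replicate 1, old male H3.3Adelta replicate 3 and young male H3.3BK36R replicate 3. These 3 sets were chosen after seeing the data, and adjusted p-values without them are given beside single genes whose call ended or was gained, not for every gene and comparison. Leaving out the chorion set leaves 1 old male H3.3Adelta library, and leaving out either other set leaves 1 young male H3.3BK36R library. Results without a set that use such a group rest on that library. Nothing in the labels says that replicates came from separate crosses, so the p-values measure the spread between these libraries. In whole heads, fewer cells of a type and less RNA per cell cannot be told apart.

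Per kilobase of exon, expression of the family was concentrated in a few CYP3 and CYP4 genes. Cyp6w1 was highest, with a median of 3693 normalized counts per kb over the 23 libraries and a range of 1474 to 8116. Cyp6a2 followed at 2999 and Cyp313a1 at 2505, and then came Cyp6d5 at 1991, Cyp28d1 at 1941, Cyp6g1 at 1815 and Cyp4e2 at 1709. These 7 genes made up 51.8% of the summed medians per kb of all 84 genes. The ranges of neighbours in this order overlapped, 1031 to 6090 per kb for Cyp6a2 and 397 to 5850 for Cyp313a1, for example. Cyp6w1, Cyp6a2, Cyp28d1 and Cyp6g1 are best known from insecticide or plant-toxin tolerance, and Cyp4g15, a CYP4 gene known for its expression in the nervous system, stood 11th at 1287 per kb. In normalized counts, 52 genes had a median of 100 or more and 14 of 1000 or more, while 12 had a median under 10, of which 8 were tested. The summed counts of these 12 low genes were 79.8 to 237 in the 6 libraries with reads on silent genes and 23.5 to 164 in the other 17, with overlapping ranges. The 4 genes that missed the filter were Cyp310a1, Cyp313a3, Cyp313a5 and Cyp6t2Psi, and every one of them gave at least 1 read in some library.

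In old heads, P450 genes were mostly higher in H3.3BK36R than in H3.3Adelta. A gene was called when the limma test on log2(normalized count + 1), with age-by-genotype groups and sex as a covariate, gave a Benjamini-Hochberg adjusted p under 0.05 over all 12493 genes, and fold changes here are on this log2 scale with their standard error. Of the 80 P450 genes, 32 were higher and 3 lower in old H3.3BK36R heads, against 10.0% of all genes higher and 8.59% lower. The median log2 fold change of the 80 was 0.44, that of all genes -0.0025, and 63 of the 80 had a positive value. The summed normalized counts of the family were 39420.3 to 61584 (median 46373) in the 6 old H3.3Adelta libraries and 61550.5 to 81476 (median 73569.9) in the 6 old H3.3BK36R libraries, a ratio of means of 1.54. The ranges touched at 1 pair of libraries, H3.3Adelta male replicate 1 at 61584 and H3.3BK36R female replicate 3 at 61550.5. In young heads the sums overlapped widely, at 55811 to 75835 (median 65308) in 6 H3.3Adelta libraries against 78879, 49720.4, 62102, 75149 and 89242 in 5 H3.3BK36R libraries, and the ratio of means was 1.09.

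**Figure D1:**
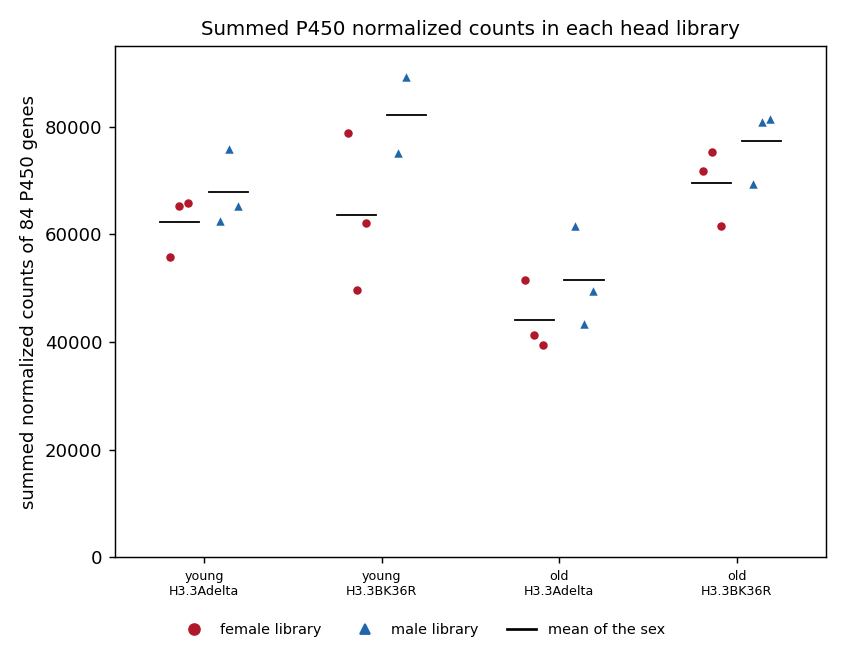
Summed normalized counts of the 84 P450 genes in each of the 23 libraries (y axis, from 0), by age, sex and genotype (x axis); points are libraries and bars are group means. The old H3.3Adelta libraries lie between 39420 and 61584 and the old H3.3BK36R libraries between 61551 and 81476, while the young groups overlap.

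By clan, most of the calls fell in CYP3. In this clan, which holds most of the known detoxification genes, 21 of 37 genes were higher and none lower in old H3.3BK36R heads, with a median log2 fold change of 0.72. In the CYP4 clan, which includes enzymes of fatty acid and hydrocarbon metabolism, 7 of 30 were higher and 3 lower (median 0.25), in the mitochondrial clan 3 of 9 were higher, and of the 4 CYP2 genes only Cyp18a1 was called. By chromosome, 31 of 66 autosomal P450 genes were higher and 1 lower, where all autosomal genes gave 10.2% and 7.69%. Of the 14 P450 genes on the X, 1 was higher and 2 lower, where all X-linked genes gave 9.45% and 13.5%. No difference between clans or chromosomes was tested. Of the fat body genes, a tissue rich in P450s, 3 of 7 were higher in old H3.3BK36R heads, Lsp2 by 5.99 ± 0.78, Lsp1beta by 4.21 ± 0.85 and bmm by 0.54 ± 0.16, and AkhR lower at -0.70 ± 0.18. The summed fat body list was 164284 to 569410.0 in old H3.3Adelta and 178120.0 to 787690.0 in old H3.3BK36R. The midgut list summed to 452 to 4291 and 2217 to 7656, with 1 of 8 tested genes called, Amy-p at 1.73 ± 0.47, and with gammaTry at 0 in every old library. Thoracic muscle genes summed to 1173 to 1914 and 1789 to 3649 with 2 of 4 higher, and no Malpighian tubule gene was called. Photoreceptor genes summed to 926769 to 1124840.0 in old H3.3Adelta and 686468 to 885720.0 in old H3.3BK36R without overlap, with 1 of 6 called higher and 1 lower. Hemocyte genes summed to 7300.0 to 10816 and 4815 to 6049 in old females and to 5142 to 5967 and 6522 to 7213 in old males, with 1 of 4 lower over both sexes. Of the neuron and glia lists, none of 4 and 1 of 4 genes were called, the latter lower. The part of these tissues in the P450 result was not tested.

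**Figure D2:**
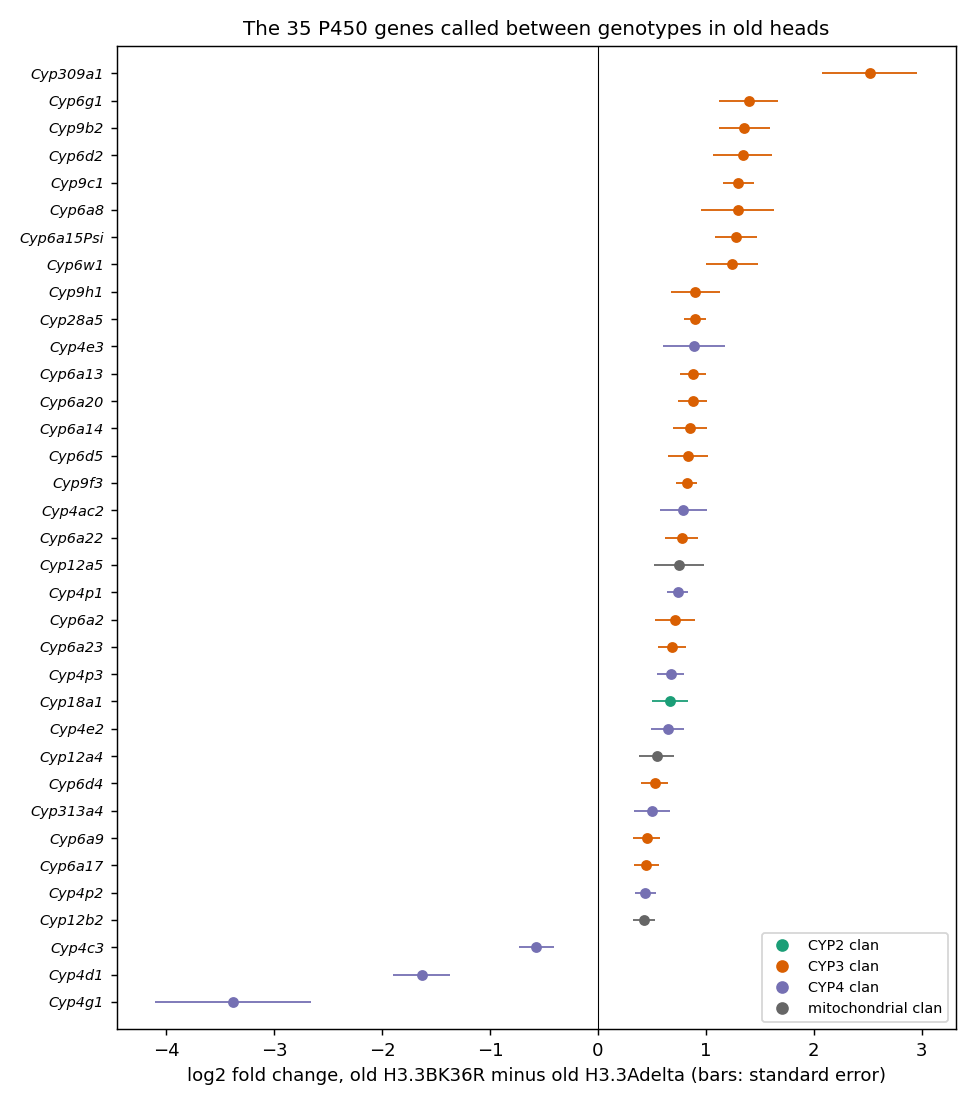
Log2 fold change of H3.3BK36R over H3.3Adelta in old heads (x axis, log2 scale, bars are standard errors) for the 35 called P450 genes (y axis), coloured by clan. Of the 35, 32 lie to the right of 0, from 0.43 for Cyp12b2 to 2.52 for Cyp309a1, and Cyp4c3, Cyp4d1 and Cyp4g1 lie to the left.

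In the list of P450 genes known for insecticide or toxin handling, each of the 11 had a positive value in this comparison. In old H3.3BK36R heads 7 were higher and none lower, with a median log2 fold change of 0.89. Of all genes, 10.0% were higher and 8.59% lower, and of the 80 P450 genes, 32 were higher and 3 lower. Cyp6g1 (chr2R:12185667-12188431, dm6), whose overexpression gives resistance to DDT and neonicotinoids, had 1001 to 3956 (median 1683) normalized counts in old H3.3Adelta and 3931 to 5678 (median 4737) in old H3.3BK36R. The groups overlapped only through male H3.3Adelta replicate 1 at 3956, and the difference was 1.40 ± 0.27 (adjusted p = 0.00074). Cyp6w1 (chr2R:6173684-6176195), another gene raised in DDT-resistant strains, had 3526 to 8584 (median 4696) in old H3.3Adelta and 6861 to 19414 (median 11834) in old H3.3BK36R, a difference of 1.24 ± 0.24 (adjusted p = 0.00080). Here too male H3.3Adelta replicate 1, at 8584, lay within the H3.3BK36R range. Cyp6a2 (chr2R:6779749-6781491), an insecticide-metabolising enzyme inducible by many compounds, had 1725 to 4142 (median 2693) in old H3.3Adelta and 3115 to 6671 (median 4561) in old H3.3BK36R, with overlapping ranges and a difference of 0.72 ± 0.18 (adjusted p = 0.0082).

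Cyp6a8 (chr2R:14887171-14889010), which responds to caffeine and phenobarbital, gave 88.6, 121 and 51.6 in old females and 199, 134 and 124 in old males of H3.3Adelta, against 184, 208 and 194 in old females and 317.7, 451 and 389 in old males of H3.3BK36R. Only male H3.3Adelta replicate 1 reached into the H3.3BK36R range, and the difference was 1.29 ± 0.34 (adjusted p = 0.0086). Cyp6d2 (chr2R:22652573-22654530), implicated in tolerance of camptothecin, gave 186, 179 and 111 in old H3.3Adelta females, 94.0, 80.8 and 88.2 in males, 580.2, 448 and 520.3 in old H3.3BK36R females and 207, 143 and 167 in males. Within each sex the genotypes did not overlap, and the difference was 1.34 ± 0.27 (adjusted p = 0.0012). For Cyp6d2, 51.0% of the exon bases lie opposite an exon of nsr, a gene that gave 0 to 17.2 normalized counts over the 23 libraries.

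Of the remaining genes of this list, Cyp12a4, known from lufenuron resistance, was higher by 0.55 ± 0.16 (adjusted p = 0.019), and Cyp4e3, linked to pyrethroid tolerance, by 0.89 ± 0.28 (adjusted p = 0.031). The call of Cyp12a4 ended without any one of old female H3.3BK36R replicate 1 (0.051) or old male H3.3Adelta replicate 2 (0.061) and without the libraries with reads on silent genes (0.054). That of Cyp4e3 ended without any one of old female H3.3Adelta replicate 1 (0.068), old male H3.3Adelta replicates 1 and 2 (0.052 to 0.074), old male H3.3BK36R replicates 1, 2 and 3 (0.056 to 0.062) or old female H3.3BK36R replicate 2 (0.052), and without each of the 3 sets of doubted libraries (0.053 for reads on silent genes, 0.32 for chorion reads and 0.054 for yolk protein reads). Cyp28d1, which gives tolerance of nicotine, had 0.62 ± 0.22 (adjusted p = 0.056), and 0.73 (adjusted p = 0.027) without the libraries with reads on silent genes. Cyp6g2, an insecticide-tolerance gene also known from the corpus allatum, had 0.32 ± 0.23 (adjusted p = 0.38). Cyp12d1-p and Cyp12d1-d, near-identical tandem copies induced by DDT and caffeine, had 0.92 ± 0.39 (adjusted p = 0.11) and 0.76 ± 0.40 (adjusted p = 0.21), and reads may be split between them by the counting. In young heads the 11 log2 fold changes between genotypes ran from -0.37 for Cyp12d1-p to 0.70 for Cyp6g2, whose adjusted p of 0.068 was the lowest of the list.

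With age, each genotype was compared with its own young heads. In H3.3Adelta, 3 of the 11 fell with age and 2 rose, where 41.9% of all genes were called, and in H3.3BK36R, 6 rose and none fell, where 40.4% were. In H3.3Adelta, Cyp6a8 fell by 2.06 on the log2 scale (adjusted p = 3.7e-05), with 207 to 1033 (median 483) in young heads against 51.6 to 199 (median 122) in old ones. Cyp6a2 fell by 1.41 (adjusted p = 2.6e-06), with 5098 to 10194 (median 8141) in young heads, and the young and old ranges did not overlap. Cyp6w1 fell by 1.05 (adjusted p = 0.0014), with 6563 to 13996 (median 11289) in young heads. In H3.3BK36R the age change was -0.66 ± 0.35 (adjusted p = 0.15) for Cyp6a8, -0.37 ± 0.19 (adjusted p = 0.14) for Cyp6a2 and 0.19 ± 0.26 (adjusted p = 0.60) for Cyp6w1. Cyp6d2 and Cyp6g2 rose with age in both, Cyp6d2 by 1.34 ± 0.27 in H3.3Adelta and 2.40 ± 0.29 in H3.3BK36R, and Cyp6g2 by 1.53 ± 0.23 and 1.14 ± 0.24. Cyp6g2 was a low gene, at 5.32 to 11.2 normalized counts in young and 14.7 to 35.1 in old H3.3Adelta heads. The other genes that rose in H3.3BK36R were Cyp12d1-p (1.47 ± 0.41), Cyp4e3 (1.24 ± 0.30), Cyp12d1-d (1.09 ± 0.42) and Cyp28d1 (0.71 ± 0.24). The call of Cyp12d1-d ended without any one of young male H3.3BK36R replicate 1 (0.054), old female H3.3BK36R replicates 1, 2 and 3 (0.071 to 0.084), old male H3.3BK36R replicates 1 and 3 (0.054 to 0.058) or young female H3.3BK36R replicates 2 and 3 (0.11 to 0.16), and that of Cyp28d1 without any one of old female H3.3BK36R replicate 1 (0.060) or young female H3.3BK36R replicates 2 and 3 (0.051 to 0.071). Without the libraries with reads on silent genes the adjusted p was 0.073 for Cyp12d1-d and 0.090 for Cyp28d1, and for Cyp12d1-d it was 0.054 without the chorion set. A test of the difference in age change between genotypes called only Cyp6a2 of the list and is given further on.

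**Figure D3:**
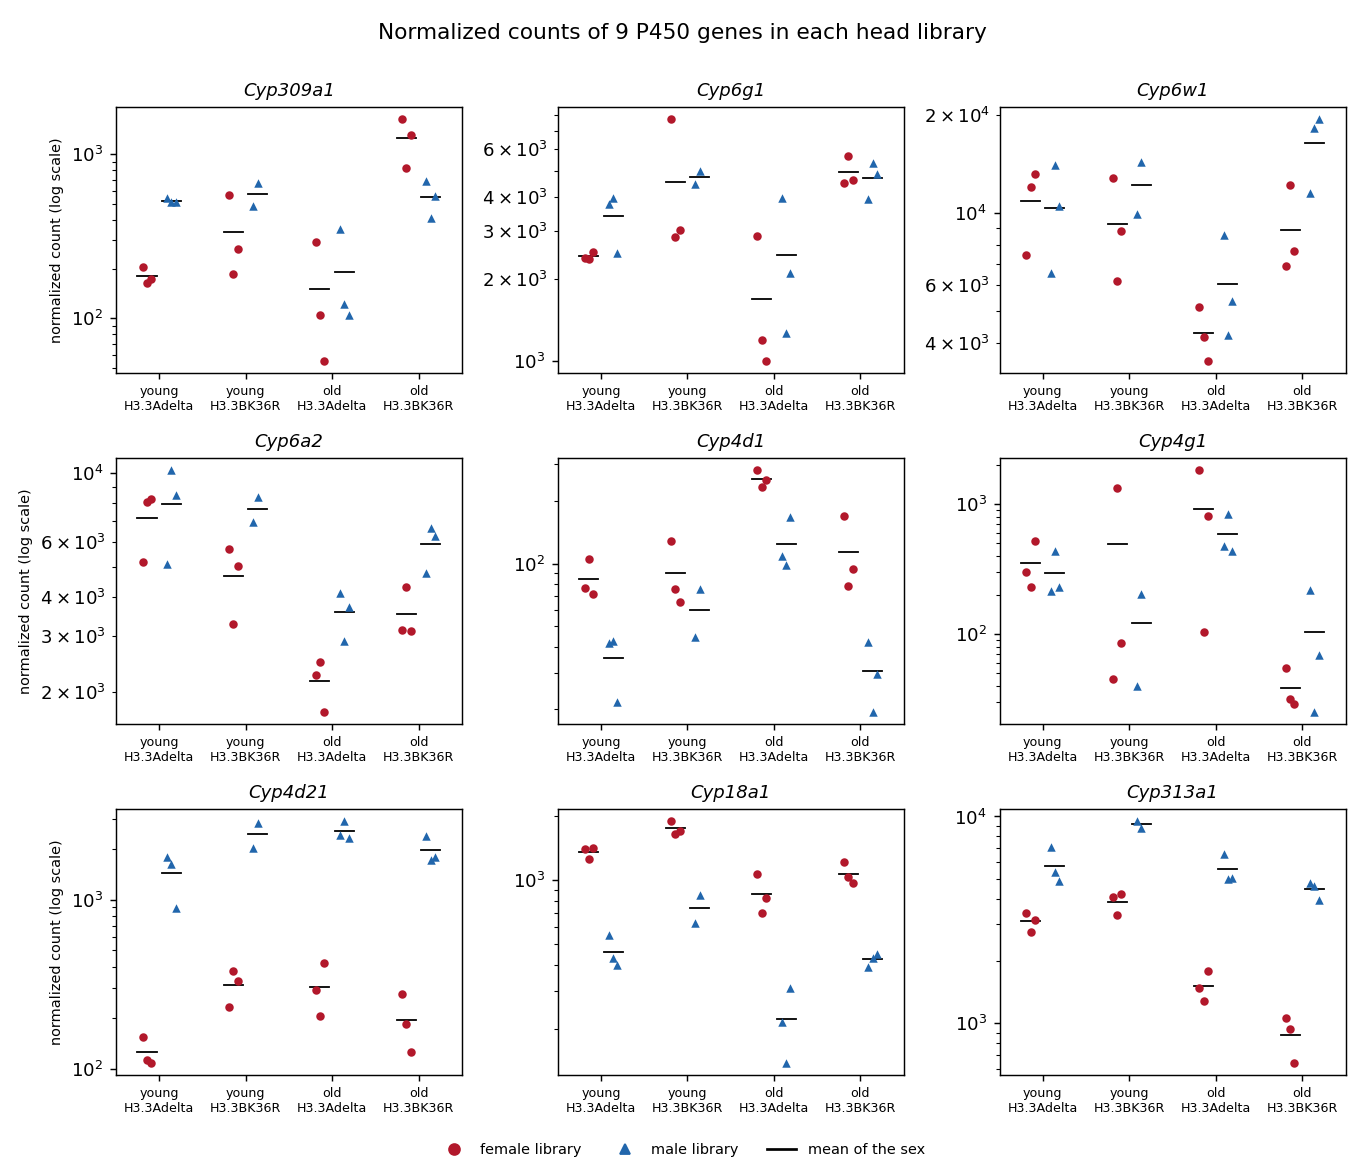
Normalized counts (y axis, log scale) of Cyp309a1, Cyp6g1, Cyp6w1, Cyp6a2, Cyp4d1, Cyp4g1, Cyp4d21, Cyp18a1 and Cyp313a1 in each of the 23 libraries, by age and genotype (x axis), with females and males as different symbols. Within each sex, old H3.3BK36R libraries lie above old H3.3Adelta ones for Cyp309a1 and below them for Cyp4d1, and the sexes separate for Cyp4d21, Cyp18a1 and Cyp313a1.

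The largest negative difference in old heads was in Cyp4g1, the oxidative decarbonylase of oenocytes that turns long-chain aldehydes into the cuticular hydrocarbons that waterproof the fly and serve as pheromones. Cyp4g1 (chrX:467057-469335) gave 1831, 103 and 806 normalized counts in old H3.3Adelta females and 478, 848 and 439 in males, against 54.7, 31.4 and 28.8 in old H3.3BK36R females and 217, 25.2 and 69.0 in males. The ranges overlapped through male H3.3BK36R replicate 1 at 217 and female H3.3Adelta replicate 2 at 103, and the difference was -3.38 ± 0.72 (adjusted p = 0.0018). With all 24 libraries in the fit the adjusted p was 0.063, and without the libraries with chorion reads the log2 fold change was -2.67 (adjusted p = 0.04996). In young H3.3BK36R heads Cyp4g1 gave 45.3, 1339.8, 84.8, 39.8 and 203, the highest of them in female replicate 2, against 215 to 518 in young H3.3Adelta, and the difference was -1.17 ± 0.76 (adjusted p = 0.36). Without the libraries with reads on silent genes, female replicate 2 among them, that difference was -2.40 (adjusted p = 0.023), and the change with age in H3.3Adelta, 0.86 ± 0.72 (adjusted p = 0.36) with all libraries, was 1.52 (adjusted p = 0.020). Cyp4g1 lies wholly within an intron of CG32816 on the same strand, and CG32816 itself had -0.40 ± 0.15 (adjusted p = 0.065) in old heads.

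Of 11 tested genes that act before Cyp4g1 in fatty acid and hydrocarbon synthesis, 1 was lower and none higher in old H3.3BK36R heads, with a list median of 0.03. Of all genes, 8.59% were lower and 10.0% higher. The lower gene of the list was FarO, a fatty acyl-CoA reductase of oenocytes, with 44.1 to 117 in old H3.3Adelta and 19.2 to 88.8 in old H3.3BK36R and a difference of -1.17 ± 0.26 (adjusted p = 0.0028). The desaturase Fad2 had -2.49 ± 0.89 (adjusted p = 0.054), the elongase eloF -1.13 ± 0.71 (adjusted p = 0.30), and the oenocyte synthases FASN2 and FASN3 0.51 ± 0.32 (adjusted p = 0.30) and 0.03 ± 0.27 (adjusted p = 0.96). The summed oenocyte list was 248 to 691 in old H3.3Adelta and 319.9 to 445 in old H3.3BK36R, with overlapping ranges, and its part in the Cyp4g1 result was not tested. The ovary list summed to 6.57 to 899 in old H3.3Adelta and 5.73 to 91.1 in old H3.3BK36R, with overlapping ranges. Of its genes, 2 of 5 were lower in old H3.3BK36R, and its part in the Cyp4g1 result was not tested. Cyp4g15, the CYP4G paralogue, was at 2947 to 4008 and 2606 to 4629 in old heads, with a difference of 0.01 ± 0.09, and neither age nor genotype was called for it. Cyp4g15 was lower in females than in males, at -0.46 ± 0.08 in young and -0.41 ± 0.08 in old heads.

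Cyp4d1 (chrX:2159145-2162180), an X-linked CYP4 gene, was also lower. In old females it gave 281, 234 and 252 in H3.3Adelta and 169, 77.9 and 94.6 in H3.3BK36R, and in old males 109, 98.3 and 167 in H3.3Adelta and 42.3, 19.5 and 29.7 in H3.3BK36R. Within each sex the genotypes did not overlap, and the difference over both sexes was -1.63 ± 0.26 (adjusted p = 0.00011). In young heads the H3.3Adelta libraries gave 21.6 to 105 (median 56.8) and the H3.3BK36R libraries 128, 76.0, 65.8, 44.7 and 75.7, a difference of 0.35 ± 0.28 (adjusted p = 0.47). With age Cyp4d1 rose by 1.71 ± 0.26 (adjusted p = 1.9e-05) in H3.3Adelta, the largest rise of the family in this genotype, and had -0.26 ± 0.28 (adjusted p = 0.49) in H3.3BK36R. The difference between these age changes was -1.98 ± 0.38 (adjusted p = 0.0079), and -1.93 (adjusted p = 0.082) without the libraries with reads on silent genes. Cyp4d1 was also higher in females, by 1.46 ± 0.24 (adjusted p = 0.00016) in old heads. In young heads the sex difference was 0.92 ± 0.26 (adjusted p = 0.034) and its call ended without any one of young female H3.3BK36R replicate 1 (0.088), young male H3.3BK36R replicate 1 (0.12), young female H3.3Adelta replicate 2 (0.085) or young male H3.3Adelta replicate 3 (0.085), and without the libraries with reads on silent genes (0.061). The third gene lower in old H3.3BK36R heads was Cyp4c3, with 39.7 to 52.6 (median 48.7) in H3.3Adelta, 20.6 to 49.8 (median 32.0) in H3.3BK36R and a difference of -0.57 ± 0.16 (adjusted p = 0.016).

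Of the genes with a role in ecdysteroid metabolism, Cyp18a1 (chrX:18688538-18693042), the hydroxylase that inactivates 20-hydroxyecdysone, differed with age, sex and genotype. In females it gave 1402, 1258 and 1414 in young and 1068, 702 and 823 in old H3.3Adelta heads, and 1898, 1651 and 1709.8 in young and 1224, 1033 and 966 in old H3.3BK36R heads. In males it gave 552, 433 and 398 in young and 215, 139 and 312.4 in old H3.3Adelta heads, and 627 and 848 in young and 390.4, 432 and 452 in old H3.3BK36R heads. At each age every female library lay above every male library. The female excess was 1.42 ± 0.16 (adjusted p = 1.8e-05) in young and 1.67 ± 0.15 (adjusted p = 2.9e-07) in old heads, and the gene fell with age, at -0.89 ± 0.16 in H3.3Adelta and -0.72 ± 0.17 in H3.3BK36R. In old heads it was higher in H3.3BK36R by 0.67 ± 0.16 (adjusted p = 0.0056), and in young heads the difference was 0.49 ± 0.17 (adjusted p = 0.077), with an adjusted p of 0.0028 without the libraries with chorion reads.

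Cyp6t3, needed for ecdysone synthesis in the larval prothoracic gland, was a low gene that rose with age, by 1.27 ± 0.25 (adjusted p = 0.00028) in H3.3BK36R and 0.75 ± 0.24 (adjusted p = 0.013) in H3.3Adelta. In old heads females gave 94.3, 81.2 and 84.7 in H3.3Adelta and 115, 129.8 and 99.2 in H3.3BK36R, and males 64.6, 34.9 and 71.3 in H3.3Adelta and 46.6, 55.0 and 55.5 in H3.3BK36R. Females did not overlap with males. The female excess was 1.44 ± 0.25 in young and 0.88 ± 0.23 in old heads. The age call in H3.3Adelta ended without the libraries with chorion reads (adjusted p = 0.057), as did the sex call in old heads (adjusted p = 0.13). P450s of ecdysone synthesis that carry another symbol lie outside the 80. Among them shd, the 20-hydroxylase, was at 14.9 to 81.2 in old H3.3Adelta and 16.0 to 88.1 in old H3.3BK36R with a difference of 0.03 ± 0.46 (adjusted p = 0.97). The earlier enzymes sad, spok and spo were lower still, at or under 44.3 in old heads, with differences of -0.30 ± 0.39, 0.22 ± 0.36 and 0.40 ± 0.90 and adjusted p-values of 0.65, 0.73 and 0.81.

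Of the genes tied to behaviour, Cyp4d21 (chr2L:7605600-7607701), known as sex-specific enzyme 1, acts downstream of the sex-determination pathway in non-neuronal cells of the male head and affects courtship. Males gave 1796, 1623 and 893 in young and 2405, 2911 and 2328 in old H3.3Adelta heads, and females 155, 113 and 108 in young and 291, 205 and 420.0 in old heads. In H3.3BK36R, males gave 2031 and 2853 in young and 2379, 1711 and 1791 in old heads, and females 233, 380.0 and 330.3 in young and 277, 183 and 125 in old heads. No female library reached a male one, and the sex difference was -3.21 ± 0.22 (adjusted p = 5.9e-08) in young and -3.25 ± 0.21 (adjusted p = 1.1e-08) in old heads, the largest sex difference of the 80 genes at either age. Cyp4d21 was higher in H3.3BK36R in young heads, by 1.09 ± 0.22 (adjusted p = 0.0021), and had -0.52 ± 0.21 (adjusted p = 0.081) in old heads. With age it rose by 1.06 ± 0.21 (adjusted p = 0.00025) in H3.3Adelta and fell by 0.55 ± 0.22 (adjusted p = 0.046) in H3.3BK36R, and the difference was -1.61 ± 0.30 (adjusted p = 0.0060). The fall in H3.3BK36R was lost without any one of old female H3.3Adelta replicate 1 (0.051), old male H3.3Adelta replicates 1, 2 and 3 (0.0501 to 0.052), young female H3.3Adelta replicate 2 (0.051), young female H3.3BK36R replicates 2 and 3 (0.10 to 0.12), old female H3.3BK36R replicates 2 and 3 (0.079 to 0.14), old male H3.3BK36R replicates 2 and 3 (0.068 to 0.075) or young male H3.3BK36R replicate 3 (0.080). It was also lost without the libraries with reads on silent genes (0.55), with chorion reads (0.064) or with yolk protein reads (0.062). Without the first set the difference of age changes was -1.44 (adjusted p = 0.052).

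Cyp6a20 (chr2R:14882118-14884046), a gene whose loss raises aggression between males, gave 827, 612 and 709.8 in old H3.3Adelta females and 784, 588 and 673 in males, and 1303, 1420.5 and 1259.8 in females and 1086, 1287 and 1333 in males of old H3.3BK36R. These ranges did not overlap, and the difference was 0.88 ± 0.13 (adjusted p = 5.9e-05). In H3.3Adelta it fell with age by 0.79 ± 0.13 (adjusted p = 6.5e-05), and in H3.3BK36R the age change was -0.19 ± 0.14 (adjusted p = 0.31). Cyp6a17 (chr2R:14873953-14875739), required in the mushroom bodies for temperature preference, was higher in old H3.3BK36R heads by 0.45 ± 0.12 (adjusted p = 0.0081), with 571 to 1009 against 833 to 1242. That difference was 0.35 without the libraries with chorion reads (adjusted p = 0.072). Cyp6a17 fell with age in both genotypes, at -0.56 ± 0.12 in H3.3Adelta and -0.36 ± 0.12 in H3.3BK36R, the second call lost without any one of young female H3.3BK36R replicate 1 (0.056), old male H3.3BK36R replicate 1 (0.059) or young male H3.3BK36R replicate 3 (0.069), and without the sets with reads on silent genes (0.10) or yolk protein reads (0.11). Of the cuticle genes, Cyp301a1, which takes part in forming adult cuticle, was at 29.2 to 60.0 in young and 25.3 to 48.0 in old H3.3Adelta heads and 29.2 to 45.0 in old H3.3BK36R heads, and Cyp303a1, needed for mechanosensory bristles, stayed at or under 19.6 in every library used. Neither was called for age, genotype or sex.

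Outside the lists of known roles, the largest positive difference in old H3.3BK36R heads was in Cyp309a1 (chr2L:2562483-2564830), a CYP3 gene. Old females gave 291, 104 and 55.3 in H3.3Adelta and 1642, 832 and 1308 in H3.3BK36R, and old males 352, 122 and 104 in H3.3Adelta and 686, 410.5 and 555 in H3.3BK36R. Within each sex the genotypes did not overlap, and the difference over both was 2.52 ± 0.44 (adjusted p = 0.00025). Its neighbour Cyp309a2 had 1.03 ± 0.41 (adjusted p = 0.085). In young heads Cyp309a1 was at 165 to 542 in H3.3Adelta, lower in females (207, 165 and 173) than in males (542, 515 and 509.7), and its age change of -1.13 ± 0.44 (adjusted p = 0.043) in H3.3Adelta lost its call without any one of young male H3.3Adelta replicates 1, 2 and 3 (0.086 to 0.095), old female H3.3Adelta replicates 2 and 3 (0.073 to 0.12) or old male H3.3Adelta replicates 2 and 3 (0.084 to 0.093). It was also lost without the libraries with reads on silent genes (adjusted p = 0.13) and without the males with yolk protein reads (0.10).

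Among CYP9 genes, Cyp9b2 had 937 to 2014 (median 1130.3) normalized counts in old H3.3Adelta and 2487 to 5799 (median 2896) in old H3.3BK36R, a difference of 1.36 ± 0.24 (adjusted p = 0.00023) with no overlap. Cyp9c1 had 263 to 484 (median 328) and 655 to 1124 (median 832), also without overlap, and its difference of 1.30 ± 0.14 (adjusted p = 8.8e-07) had the lowest adjusted p of the family in this comparison. Nearly all of Cyp9c1, 98.2% of its exon bases, lies opposite asRNA:CR43787, which gave 44.4 to 89.4 over the 23 libraries. A label of the count table names a strand setting (forStrand), which the sources used here do not describe further. Cyp9f3 was higher in H3.3BK36R at both ages, by 0.93 ± 0.10 (adjusted p = 2.4e-06) in young and 0.82 ± 0.10 (adjusted p = 2.4e-06) in old heads. Its values were 114 to 162 in young and 126 to 164 in old H3.3Adelta, and 253, 199.8, 227, 312.8 and 299.6 in young and 215 to 304.7 in old H3.3BK36R, so the genotypes did not overlap at either age. Cyp28a5 was higher by 0.90 ± 0.10 (adjusted p = 1.8e-06) in old heads, at 1660.5 to 2346 (median 2095) against 3476 to 3987 (median 3771). The pseudogene Cyp6a15Psi also separated the genotypes in old heads, at 16.9 to 35.1 and 45.3 to 88.1, a difference of 1.28 ± 0.19 (adjusted p = 4.6e-05).

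In young heads fewer P450 genes differed between genotypes. Of the 80, 9 were higher and 1 lower in H3.3BK36R, where 4.80% of all genes were higher and 4.40% lower, and the median log2 fold change of the 80 was 0.14. Cyp313a4, a CYP4-clan gene, was at 29.2 to 40.5 (median 33.4) in H3.3Adelta and at 73.0, 73.5, 72.1, 72.8 and 59.4 in H3.3BK36R, without overlap and with a difference of 1.03 ± 0.17 (adjusted p = 0.00045). Cyp4ac3 had 0.81 ± 0.18 (adjusted p = 0.0047) and Cyp311a1 0.71 ± 0.12 (adjusted p = 0.00059), and the remaining higher genes beside Cyp4d21 and Cyp9f3 were Cyp6a15Psi (0.87 ± 0.20), Cyp6a23 (0.52 ± 0.14), Cyp9c1 (0.50 ± 0.15) and Cyp28a5 (0.43 ± 0.11). The call of Cyp28a5 was lost without young male H3.3BK36R replicate 3 (0.056), that of Cyp6a23 without young male H3.3BK36R replicate 3 (0.072), and that of Cyp9c1 without any one of young female H3.3Adelta replicates 1 and 3 (0.081 to 0.099), young female H3.3BK36R replicate 1 (0.074), young male H3.3BK36R replicates 1 and 3 (0.074 to 0.12) or young male H3.3Adelta replicate 3 (0.084). Without the libraries with reads on silent genes, Cyp9c1 (0.077), Cyp6a23 (0.16) and Cyp6a15Psi (0.097) had an adjusted p above 0.05, and without the males with yolk protein reads so did Cyp28a5 (0.070), Cyp9c1 (0.13) and Cyp6a23 (0.089). The gene that was lower was Cyp4d20, at -0.63 ± 0.11 (adjusted p = 0.00075), with 485 to 819 in H3.3Adelta and 516, 554, 381, 379 and 443 in H3.3BK36R. Among marker genes, 2 of 7 for fat body, 2 of 4 for Malpighian tubule, 1 of 5 for oenocytes and 1 of 8 for midgut were higher in young H3.3BK36R heads and 1 of 4 for hemocytes lower, and their part was not tested. The Malpighian tubule list summed to 320.4 to 415 and 365 to 582 and the oenocyte list to 216 to 536 and 354 to 932. Of the 9 genes higher in young heads, 6 (66.7%) were also among the 32 higher in old heads (18.8% of those), namely Cyp28a5, Cyp313a4, Cyp6a15Psi, Cyp6a23, Cyp9c1 and Cyp9f3. Across the 80 genes the young and old genotype differences, which share no library, had Pearson's r = 0.37, against 0.46 over all genes, as a description across genes that are not independent replicates.

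P450 genes often lie in tandem arrays that arose by duplication. Taking genes within 10000 bases of each other as a cluster gave 16 clusters with 43 tested members. Of these 43, 20 were higher and none lower in old H3.3BK36R heads (median 0.62). Of 37 genes outside clusters 12 were higher and 3 lower (median 0.17), and of all genes 10.0% were higher and 8.59% lower. The largest cluster, at chr2R:14871366-14903095 (dm6), holds Cyp6a22, Cyp6a17, Cyp6a23, Cyp6a19, Cyp6a9, Cyp6a20, Cyp6a8 and Cyp317a1. Of these 8, 6 were higher in old H3.3BK36R heads, with a range of -0.23 to 1.29 over the 8, and 6 fell with age in H3.3Adelta. Cyp6a19 and Cyp6a9 overlap on opposite strands over 20.8% and 20.2% of their exon bases, and 32.6% of Cyp317a1 lies opposite Kank. In the cluster at chr2R:8564187-8572147, all of Cyp6a14, Cyp6a15Psi and Cyp6a13 were higher in old H3.3BK36R heads, by 0.85 to 1.28, as were all of Cyp4p2, Cyp4p1 and Cyp4p3 at chr2R:9237512-9244410, by 0.44 to 0.74, and both Cyp12a5 and Cyp12a4 at chr3R:19132648-19137136, by 0.55 to 0.75. Other clusters were mixed. At chr2R:12185667-12192436, Cyp6g1 was called and Cyp6g2 (0.32 ± 0.23) and Cyp6t3 (0.17 ± 0.24) were not, and at chr3R:12396007-12406028, Cyp9f3 was called and Cyp9f2 (0.05 ± 0.09) was not. Neighbours may share reads where their sequences are alike, and the clusters were not compared by a test or separated from clan and chromosome.

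With age, P450 genes moved in both directions. The same sign in both genotypes was seen for 51 of the 80, a lower share than the 9850 of all 12493 genes. In H3.3Adelta 11 of the 80 rose and 22 fell, where 21.5% and 20.4% of all genes did, with a median of -0.11 against 0.04 over all genes. In H3.3BK36R 24 rose and 18 fell, where 20.5% and 19.9% of all genes did, with a median of 0.19 against 0.03. The share of P450 genes called was thus near that of all genes in H3.3Adelta, 41.3% against 41.9%, and 52.5% against 40.4% in H3.3BK36R. Marker genes moved with age as well. In H3.3Adelta, neuron genes summed to 135814 to 169804 in young and 93623 to 125620.0 in old heads with 3 of 4 lower, photoreceptor genes to 562586 to 772079 and 926769 to 1124840.0 with 5 of 6 higher and 1 lower, and glia genes to 16273 to 20429 and 12468 to 13461 with 2 of 4 lower. Fat body genes summed to 204469 to 424256 and 164284 to 569410.0 with 4 of 7 lower, and ovary genes to 3.80 to 40.5 and 6.57 to 899 with 5 of 5 higher. In H3.3BK36R, 2 of 4 neuron, 3 of 4 glia and 2 of 7 fat body genes were lower with age, 4 of 6 photoreceptor genes were higher and 1 lower, and no ovary gene was called. Neuron genes of H3.3BK36R summed to 80165 to 162446 in young and 84132 to 120377 in old heads, the lowest of them in a young male library. The part of these cell types in the P450 age changes was not tested. The age changes share no library between genotypes and had r = 0.55 across the 80 genes, against 0.68 over all genes.

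Genes that fell with age in both genotypes numbered 13, which were 59.1% of those that fell in H3.3Adelta and 72.2% of those in H3.3BK36R. Cyp313a1, number 3 by its median per kb over the 23 libraries but as low as 397 per kb in an old female library, fell by 0.55 in H3.3Adelta (adjusted p = 0.035) and by 1.64 in H3.3BK36R (adjusted p = 2.9e-06). These values are over both sexes. In H3.3Adelta, females gave 2774 to 3408 in young and 1286 to 1792 in old heads. The males gave 4851 to 7112 in young and 5006 to 6604 in old heads, with the old range inside the young one. Cyp4ae1 fell, at -1.37 ± 0.15 and -1.50 ± 0.16. Its values were 111 to 146 in young and 36.6 to 66.6 in old H3.3Adelta heads, and 96.9, 120.1, 115, 125 and 170.2 in young and 32.1 to 49.8 in old H3.3BK36R heads, without overlap in either genotype. For Cyp4ae1, 88.3% of the exon bases lie opposite asRNA:CR44690, which gave 125 to 349. In H3.3Adelta and H3.3BK36R in turn, Cyp4c3 had -1.21 ± 0.16 and -1.41 ± 0.17, Cyp4s3 -1.06 ± 0.22 and -1.43 ± 0.23, Cyp28c1 -0.99 ± 0.14 and -0.81 ± 0.15, and Cyp6d5 -1.11 ± 0.19 and -0.66 ± 0.20. For Cyp6d5, an abundant CYP3 gene, the fall in H3.3BK36R had an adjusted p of 0.077 without the males with yolk protein reads. The others were Cyp18a1, Cyp305a1, Cyp317a1, Cyp4e1, Cyp6a17, Cyp6a9 and Cyp9f2.

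Genes that rose with age in both numbered 7, which were 63.6% of those that rose in H3.3Adelta and 29.2% of those in H3.3BK36R. They were Cyp4ac2, Cyp4p2, Cyp6a13, Cyp6d2, Cyp6g2, Cyp6t3 and Cyp9h1. Cyp4ac2, a CYP4 gene of a tandem trio, rose by 0.90 ± 0.22 (adjusted p = 0.0019) in H3.3Adelta and by 1.73 ± 0.23 (adjusted p = 3.1e-06) in H3.3BK36R, with 113 to 357 in young and 247 to 625 in old H3.3Adelta heads. In H3.3BK36R it gave 273, 241, 147, 217 and 162 in young and 546 to 851 in old heads, and the ages overlapped in H3.3Adelta but not in H3.3BK36R. Cyp6a13 rose by 0.62 ± 0.12 and 1.12 ± 0.13. Cyp9h1 rose by 0.58 ± 0.23 and 1.09 ± 0.24, and its call in H3.3Adelta was lost without any one of young female H3.3Adelta replicates 1 and 3 (0.074 to 0.11), old female H3.3Adelta replicates 1 and 2 (0.089 to 0.11), old male H3.3Adelta replicates 1 and 3 (0.053 to 0.084) or young male H3.3Adelta replicate 3 (0.10) and without each of the 3 sets of doubted libraries (0.057 for reads on silent genes, 0.14 for chorion reads and 0.052 for yolk protein reads). Cyp4d14 rose in H3.3Adelta by 1.29 ± 0.31 (adjusted p = 0.0019), and 96.2% of its exon bases lie opposite asRNA:CR45479, which gave 71.4 to 527. Cyp4e2 and Cyp6d4 fell with age in H3.3Adelta and rose in H3.3BK36R, and Cyp4d21 did the reverse.

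The difference between the genotypes in their age change was tested gene by gene, and 8 of the 80 P450 genes were called, 6 with a higher and 2 with a lower value in H3.3BK36R, where 2.22% of all genes were. Beside Cyp4d1 and Cyp4d21, which had negative values, the called genes were Cyp4p2 at 0.62 ± 0.14, Cyp4p1 at 0.67 ± 0.14, Cyp6d4 at 0.72 ± 0.18, Cyp9c1 at 0.80 ± 0.21, Cyp4e2 at 0.91 ± 0.22 and Cyp6a2 at 1.04 ± 0.27. Cyp6a2 fell with age by 1.41 in H3.3Adelta and had -0.37 ± 0.19 in H3.3BK36R. Cyp4e2, the 7th most abundant gene per kb, gave 2657 to 3963 (median 3469) in young and 1998 to 3052 (median 2229.7) in old H3.3Adelta heads and 3095, 1663, 2738, 3336 and 3502 in young and 3242 to 4511 (median 3689) in old H3.3BK36R heads. Its age change was -0.48 ± 0.15 (adjusted p = 0.014) in H3.3Adelta and 0.43 ± 0.16 (adjusted p = 0.037) in H3.3BK36R. Cyp4p1 and Cyp4p2, tandem CYP4 genes, changed with age by -0.17 ± 0.10 and 0.31 ± 0.10 in H3.3Adelta and by 0.50 ± 0.10 and 0.93 ± 0.10 in H3.3BK36R. Over all 80 genes, 52 had a positive value in this test and the median was 0.26, against -0.02 over all genes.

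The calls depended on few libraries. The count was 1, Cyp4p1, without the 6 libraries with reads on silent genes, and leaving out single libraries gave 4 to 11 calls, among them 5 without old female H3.3BK36R replicate 1, 5 without young female H3.3Adelta replicate 2, 5 without old female H3.3Adelta replicate 2, 4 without old male H3.3Adelta replicate 2, 5 without young female H3.3BK36R replicate 2, 4 without old female H3.3BK36R replicate 2, 4 without young female H3.3Adelta replicate 3, 4 without old female H3.3Adelta replicate 3 and 4 without young female H3.3BK36R replicate 3. Cyp6a2 was lost without any one of old female H3.3Adelta replicates 1, 2 and 3 (0.0504 to 0.077), young male H3.3BK36R replicate 1 (0.060), young female H3.3Adelta replicates 2 and 3 (0.075 to 0.083), young male H3.3Adelta replicates 2 and 3 (0.060 to 0.069), old male H3.3Adelta replicate 2 (0.080), young female H3.3BK36R replicates 2 and 3 (0.061 to 0.088), old female H3.3BK36R replicate 2 (0.082) or old male H3.3BK36R replicates 2 and 3 (0.070). Cyp9c1 was lost without 17 of the 23 libraries in turn, Cyp6d4 without 11 and Cyp4e2 without 9, with adjusted p-values of at most 0.095, 0.071 and 0.063. Without chorion reads, Cyp6d4 (0.095), Cyp9c1 (0.060) and Cyp6a2 (0.095) had an adjusted p above 0.05. Cyp4d1, Cyp4d21, Cyp4p1 and Cyp4p2 stayed called whichever single library was left out.

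**Figure D4:**
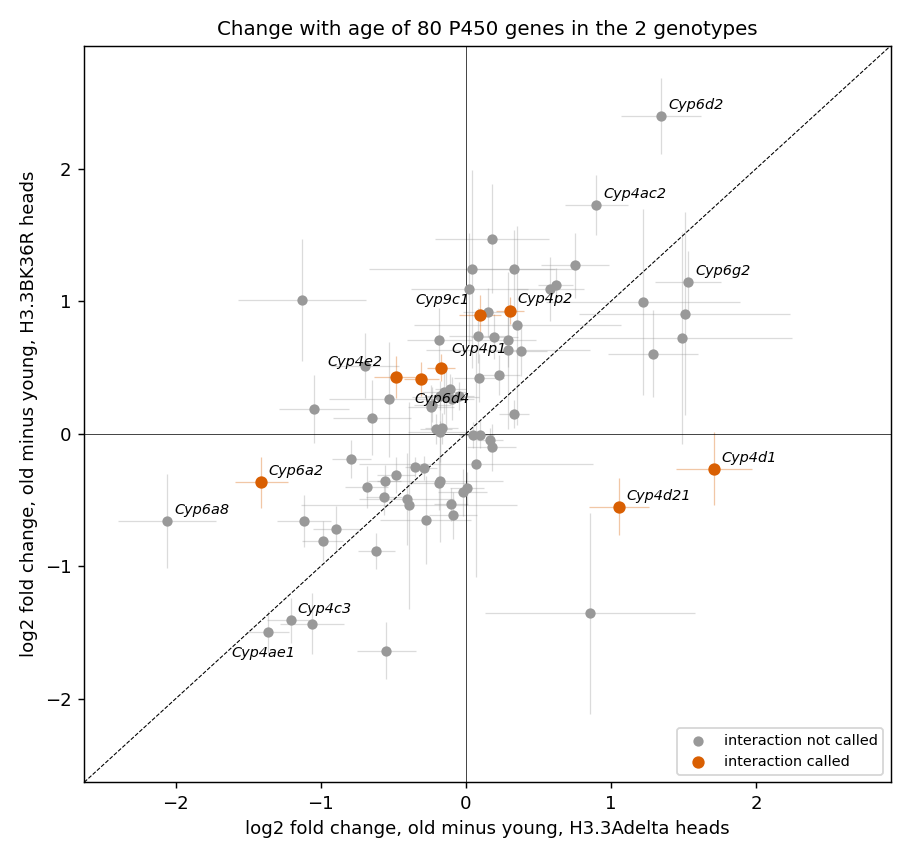
Log2 fold change with age in H3.3Adelta (x axis) against that in H3.3BK36R (y axis) for the 80 tested P450 genes; the dashed line marks equal change and the 8 genes called for the difference are orange. Of the 80 genes, 51 have the same sign on both axes, against 9850 of all 12493 genes. Cyp4d1 and Cyp4d21 lie below the line, and Cyp6a2, Cyp4e2, Cyp9c1, Cyp6d4, Cyp4p1 and Cyp4p2 lie above it.

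Between the sexes, 12 of the 80 P450 genes differed in young heads, 4 higher and 8 lower in females, where 4.93% and 3.26% of all genes were. In old heads 27 did, 18 higher and 9 lower in females, where 15.1% and 15.2% of all genes were. The 18 include Cyp304a1, which passed the filter through old females and carries no weight. The count in old heads was 15 without the libraries with chorion reads. All 4 genes higher in young females, Cyp18a1, Cyp4d1, Cyp6t3 and Cyp6v1, were also higher in old females (22.2% of those 18), and of the 8 lower in young females 5 were lower in old ones, Cyp305a1, Cyp313a1, Cyp4d14, Cyp4d21 and Cyp4g15 (62.5% of the first list and 55.6% of the second). Of the 14 P450 genes on the X, 3 were higher and 3 lower in young females, where 9.80% and 4.72% of all X-linked genes were. In old females 3 were higher and 3 lower, where 23.7% and 10.7% were. After Cyp4d21, the strongest male excess in old heads was in Cyp313a1 (chr3R:14521049-14523064). Old males gave 6604, 5006 and 5029 in H3.3Adelta and 4772, 4629 and 3945 in H3.3BK36R, and old females 1477, 1286 and 1792 in H3.3Adelta and 1060.3, 935 and 644 in H3.3BK36R. In young heads males gave 7112, 5380.5 and 4851 in H3.3Adelta and 9495 and 8813 in H3.3BK36R, and females 3408, 2774 and 3152 and 4065, 3326 and 4221. The sexes did not overlap at either age, with -1.06 ± 0.13 (adjusted p = 4.8e-05) in young and -2.12 ± 0.12 (adjusted p = 2.6e-09) in old heads. Cyp4d14 was lower in females at both ages, with -1.38 ± 0.34 in young and -1.27 ± 0.33 in old heads, the first lost without young male H3.3BK36R replicate 3 (0.059), the silent-gene set (0.11) or the yolk protein set (0.083) and the second without the libraries with chorion reads (adjusted p = 0.097).

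Higher in old females were several genes at moderate and low levels. Cyp12c1, a mitochondrial P450, gave 979, 494 and 829 in old H3.3Adelta and 1186, 1096 and 1095 in old H3.3BK36R females. The males gave 504, 388 and 462 in H3.3Adelta and 486, 398 and 451 in H3.3BK36R, a difference of 1.03 ± 0.15 (adjusted p = 3.2e-05). Cyp9b1 was higher by 0.95 ± 0.11 (adjusted p = 4.4e-06) and Cyp6d2 by 1.20 ± 0.20 (adjusted p = 0.00018). Cyp304a1 and Cyp4ad1 were low genes. Old females gave 44.0, 33.2 and 16.0 of Cyp304a1 in H3.3Adelta and 25.3, 16.2 and 35.8 in H3.3BK36R, and old males 5.72, 1.84 and 0.938 and 4.34, 8.03 and 7.66. The sexes did not overlap, but of the 7 libraries in which Cyp304a1 reached 10 normalized counts 6 were these old females, so that it passed the filter through the group where it was high, and no test of it is given here. Cyp4ad1 had 1.75 ± 0.50 (adjusted p = 0.011) with ranges of 5.67 to 38.1 in females and 0.938 to 17.2 in males that overlapped. Cyp6a2 (-0.74 ± 0.18) and Cyp6w1 (-0.68 ± 0.23) were lower in old females, the latter lost without any one of old male H3.3Adelta replicate 1 (0.0999), old female H3.3BK36R replicates 1 and 3 (0.069 to 0.087), old female H3.3Adelta replicates 2 and 3 (0.055 to 0.081) or old male H3.3BK36R replicates 2 and 3 (0.079 to 0.084), without the libraries with reads on silent genes (0.14) and without those with chorion reads (0.11). Female fat body genes moved with sex, since Yp1, Yp2 and Yp3 were higher in females at both ages, as were 2 of 7 fat body genes in young and 3 of 7 in old heads. The part of fat body in the sex differences was not tested.

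The sex difference itself changed with age for 3 of the 80 genes, where 0.728% of all genes were called. One was Cyp304a1, which passed the filter through old females and carries no weight here. Relative to males, Cyp9b1 rose with age in females by 0.81 ± 0.16 (adjusted p = 0.035), and Cyp313a1 moved the other way at -1.05 ± 0.18 (adjusted p = 0.017). For Cyp9b1, females gave 194 to 388 in young and 381 to 918 in old heads, and males 235 to 278 in young and 239 to 289.5 in old heads. The count was 0 without each of the 3 sets of doubted libraries, and leaving out single libraries gave 0 to 10 calls. The counts that moved were 1 without young male H3.3Adelta replicate 1, 1 without old female H3.3Adelta replicate 1, 6 without young female H3.3BK36R replicate 1, 10 without young male H3.3BK36R replicate 1, 1 without old male H3.3Adelta replicate 2, 1 without old male H3.3BK36R replicate 2, 1 without young female H3.3Adelta replicate 3, 0 without young male H3.3BK36R replicate 3 and 1 without old male H3.3BK36R replicate 3. Cyp313a1 was lost without young male H3.3BK36R replicate 3 (0.065), and Cyp9b1 without 10 of the 23 libraries in turn.

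**Figure D5:**
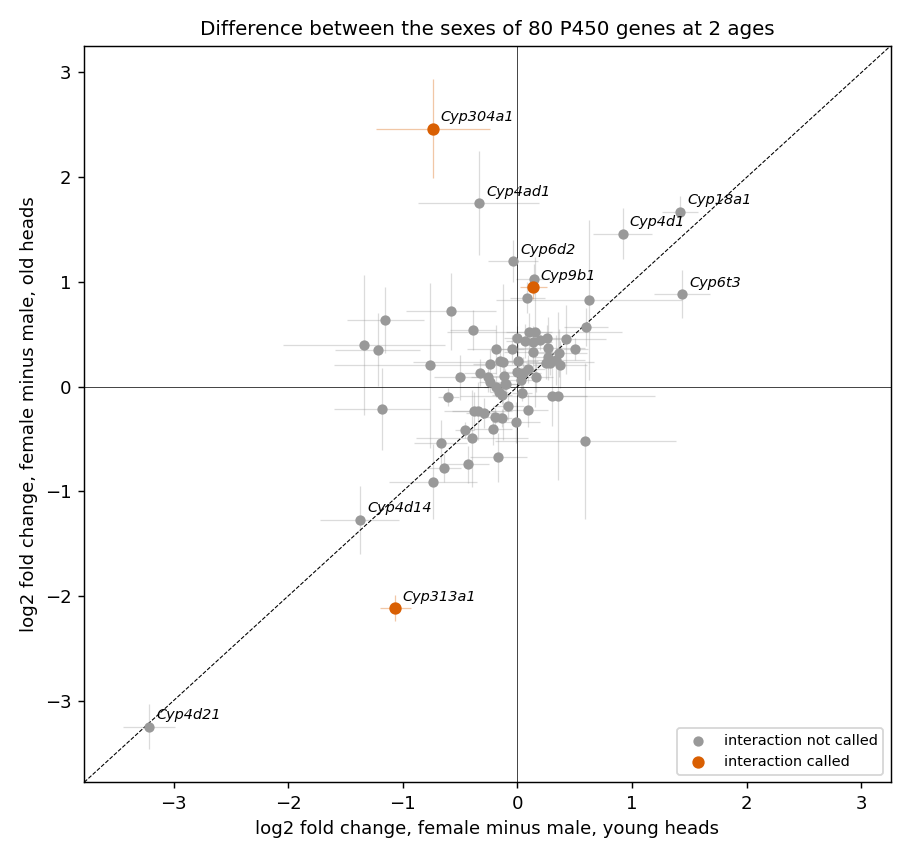
Log2 fold change of females over males in young heads (x axis) against that in old heads (y axis) for the 80 tested P450 genes; the 3 genes called for the difference, Cyp304a1, Cyp9b1 and Cyp313a1, are orange. Cyp304a1 passed the filter through old females and carries no weight. Cyp4d21 lies far toward males at both ages (-3.21 and -3.25), and Cyp18a1 toward females (1.42 and 1.67).

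Within each sex and age, with 3 libraries to a group and 2 of young H3.3BK36R males, the old heads again held most of the genotype calls. In old females 22 of the 80 genes were higher and 4 lower in H3.3BK36R, where 5.65% and 5.15% of all genes were. In old males 18 were higher and 1 lower, where 4.67% and 3.34% of all genes were. The count in old females was 17 without old female H3.3BK36R replicate 1 and 14 without old female H3.3Adelta replicate 3, and 10 when an absolute log2 fold change above 1 was also asked for, which 3.40% of all genes met. In old males it was 10 without old male H3.3Adelta replicate 2 and 11 without old male H3.3BK36R replicate 3, and 7 with the fold limit, which 3.36% of all genes met. Without the libraries with chorion reads 1 old male H3.3Adelta library is left, so that count carries no weight and is not given here. Higher in both sexes were 12 genes, 54.5% of the female and 66.7% of the male list, and Cyp4d1 was lower in both. The 12 were Cyp28a5, Cyp309a1, Cyp4p1, Cyp6a13, Cyp6a14, Cyp6a15Psi, Cyp6a20, Cyp6a22, Cyp6d2, Cyp9b2, Cyp9c1 and Cyp9f3. Of these, the female calls of Cyp4d1 (0.14) and Cyp6a15Psi (0.069) and the male calls of Cyp6d2 (0.083), Cyp9b2 (0.081) and Cyp309a1 were lost without the libraries with reads on silent genes. The female call of Cyp4d1 (0.077) was lost without those with chorion reads. The male calls of Cyp6d2 and Cyp6a20 were not kept there either, with 1 old male H3.3Adelta library left. The male calls of Cyp6d2 (0.24), Cyp9b2 (0.24) and Cyp309a1 were lost without the libraries with yolk protein reads. Of single libraries, the female call of Cyp4d1 ended without any one of old female H3.3Adelta replicates 1, 2 and 3 (0.054 to 0.071) or old female H3.3BK36R replicates 2 and 3 (0.076 to 0.13) and that of Cyp6a15Psi without old female H3.3Adelta replicate 1 (0.063). The male call of Cyp6d2 ended without any one of young female H3.3Adelta replicates 1 and 3 (0.0504 to 0.056), old male H3.3Adelta replicates 1, 2 and 3 (0.077 to 0.15), old female H3.3BK36R replicates 1, 2 and 3 (0.054 to 0.056), old male H3.3BK36R replicates 1, 2 and 3 (0.064 to 0.17) or old female H3.3Adelta replicate 2 (0.05002). The male call of Cyp9b2 ended without any one of old male H3.3BK36R replicates 1, 2 and 3 (0.063 to 0.096) or old male H3.3Adelta replicates 2 and 3 (0.13 to 0.14), and that of Cyp6a20 without any one of old male H3.3Adelta replicate 2 (0.062) or old male H3.3BK36R replicate 3 (0.055). Across the 80 genes the female and male differences, which share no library, had r = 0.68, against 0.56 over all genes.

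By size, Cyp309a1 led in old females with 3.34 ± 0.49 (adjusted p = 0.00015), then Cyp6d2 with 1.73 ± 0.29 and Cyp6g1 with 1.70 ± 0.40. In old males it had 1.70 ± 0.49 (adjusted p = 0.037), a call lost without any one of old male H3.3BK36R replicates 1, 2 and 3 (0.056 to 0.13) or old male H3.3Adelta replicates 2 and 3 (0.16) and, on recovered reads, with edgeR (0.078) and DESeq2 (0.051). It was also lost without the libraries with reads on silent genes (0.14) and without the males with yolk protein reads (0.31). Cyp6w1 had 1.46 ± 0.33 (adjusted p = 0.0080) in old males and 1.03 ± 0.33 (adjusted p = 0.053) in old females, the latter with an adjusted p of 0.049 without the libraries with chorion reads. Its call in males ended without any one of old male H3.3Adelta replicate 2 (0.056) or old male H3.3BK36R replicate 3 (0.05001). It was also not kept without the libraries with chorion reads, where 1 old male H3.3Adelta library was left. The call of Cyp6g1 in females ended without old female H3.3Adelta replicate 3 (0.058) and without the libraries with reads on silent genes (0.098). Cyp4g1 had -3.83 ± 1.05 (adjusted p = 0.023) in old females, lost without any one of old female H3.3Adelta replicates 1 and 3 (0.091 to 0.11) or old female H3.3BK36R replicates 2 and 3 (0.063 to 0.078) and without the libraries with chorion reads (0.13), and -2.94 ± 1.05 (adjusted p = 0.0999) in old males, where the adjusted p was 0.026 without the libraries with reads on silent genes. Cyp18a1 was higher in old male H3.3BK36R heads by 1.01 ± 0.21 (adjusted p = 0.0046). That call was not kept without the libraries with chorion reads, where 1 old male H3.3Adelta library was left. In old females Cyp18a1 had 0.33 ± 0.21 (adjusted p = 0.37), and 0.49 (adjusted p = 0.049) without that set. The test of the difference in genotype effect between sexes in old heads called 0 P450 genes in limma, edgeR and DESeq2, with 8, 5 and 7 at an unadjusted p under 0.05, and 0.0480% of all genes in limma.

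In young heads fewer genes were called within each sex. In young females 6 genes were higher and 2 lower in H3.3BK36R, where 2.14% and 1.75% of all genes were, and the count was 4 without young female H3.3BK36R replicate 1, 2 without young female H3.3Adelta replicate 2, 3 without young female H3.3BK36R replicate 2, 4 without young female H3.3Adelta replicate 3 and 3 without young female H3.3BK36R replicate 3. It was 4 without the libraries with reads on silent genes and 2 with the fold limit, which 1.92% of all genes met. In young males 4 were higher and none lower, where 1.88% and 2.75% of all genes were. The count was 2 without young male H3.3Adelta replicate 2 and 1 with the fold limit, which 1.42% of all genes met. Counts without either young male H3.3BK36R library, the silent-gene set or the yolk protein set carry no weight and are not given here. Each of these leaves 1 young male H3.3BK36R library. Cyp9f3 was higher in both, by 0.70 ± 0.12 in females and 1.19 ± 0.14 in males, and so was Cyp311a1, by 0.47 ± 0.12 and 0.99 ± 0.13. The female call of Cyp311a1 ended without any one of young female H3.3Adelta replicates 1 and 2 (0.051 to 0.15) or young female H3.3BK36R replicates 1, 2 and 3 (0.067 to 0.090). It also ended without the libraries with reads on silent genes (0.11). The male call was not kept there either, with 1 young male H3.3BK36R library left. Cyp313a4 was higher in females by 1.26 ± 0.20 (adjusted p = 0.00062). The test of the difference in genotype effect between sexes in young heads called 0 P450 genes in limma, edgeR and DESeq2, with 5, 5 and 6 at an unadjusted p under 0.05, and 0.00% of all genes in limma.

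The electron donors of the P450s were measured beside them, and 3 of them differed in old heads. Of 6 redox partners, 3 were higher and none lower in old H3.3BK36R, where 10.0% and 8.59% of all genes were. Their median log2 fold change was 0.32. Cpr, the reductase of all microsomal P450s, had 4352 to 6734 normalized counts in old H3.3Adelta and 5511 to 8503 in old H3.3BK36R, a difference of 0.37 ± 0.12 (adjusted p = 0.035). Fdx1, a mitochondrial ferredoxin, had 161 to 190.3 (median 173) and 234 to 308.3 (median 267) without overlap, a difference of 0.61 ± 0.09 (adjusted p = 4.5e-05), and Fdx2 had 0.67 ± 0.15 (adjusted p = 0.0022). Fdx1 also rose with age, by 0.47 ± 0.09 in H3.3Adelta and 0.74 ± 0.10 in H3.3BK36R. Cyt-b5 (0.02 ± 0.10), its reductase Cyt-b5-r (0.27 ± 0.19) and dare (0.02 ± 0.11) were not called. In old heads females had more Fdx2 (0.69 ± 0.12), Cpr (0.39 ± 0.11) and Cyt-b5-r (0.54 ± 0.20), where 15.1% of all genes were higher in females.

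Of 8 tested genes of heme synthesis and breakdown, 1 was higher and 1 lower in old H3.3BK36R heads. The shares of all genes were 10.0% and 8.59%, and the list median was -0.06. The higher gene was FeCH, the ferrochelatase that completes heme, at 0.56 ± 0.16 (adjusted p = 0.016). With age, Alas, the first enzyme of heme synthesis, fell in both genotypes, at -0.58 ± 0.07 in H3.3Adelta and -0.80 ± 0.08 in H3.3BK36R. Heme oxygenase Ho fell as well, at -0.46 ± 0.14 and -0.46 ± 0.15, and FeCH rose by 0.42 ± 0.16 and 0.54 ± 0.17. Among 6 regulators of xenobiotic response, 1 was lower and none higher in old H3.3BK36R heads, where 8.59% and 10.0% of all genes were. This was ss, a bHLH-PAS factor related to the aryl hydrocarbon receptor, at -0.46 ± 0.11 (adjusted p = 0.0055). cnc, the fly Nrf2, which activates detoxification genes, had 0.07 ± 0.07 (adjusted p = 0.51) between genotypes in old heads and rose with age by 0.31 ± 0.07 (adjusted p = 0.00064) in H3.3Adelta and 0.57 ± 0.07 (adjusted p = 9.9e-07) in H3.3BK36R. Its inhibitor Keap1 had -0.26 ± 0.10 (adjusted p = 0.065) and the nuclear receptor Hr96 -0.03 ± 0.05 (adjusted p = 0.77) in old heads.

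Of the 80 tested P450 genes, 65 were called in at least 1 of the 6 comparisons of age, genotype and sex made over both sexes or both genotypes, and 15 in none. The share of all genes called in at least 1 of the 6 was not counted. Age in H3.3Adelta alone called 41.9% of all genes, and age in H3.3BK36R 40.4%. Of the 15, 6 had a median under 10 normalized counts and 4 a median of 100 or more. Of the cyclophilin genes that share the symbol, Cyp1 was called only for sex in old heads, higher in females by 0.48 ± 0.11 (adjusted p = 0.0027), and Cyp40 in no comparison.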

How the data were processed

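Total RNA of adult heads was ribosome-depleted, sequenced as 100 nt pairs, aligned by the authors to dm6 with STAR 2.7.7a and counted per gene with featureCounts of Subread 2.0.3. The deposited values are signal values, counts that the authors divided by DESeq2 size factors (version 1.34.0 per the labels), and they keep the depth. Size factors of 0.750 to 1.41 gave back whole reads within 0.01 for 100% of the values. A label of the table names a strand setting (forStrand), not described further in the sources used here, and of 74 protein-coding genes lying wholly opposite exons of other genes 22 had a median of at least 100 normalized counts.

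Of 24 libraries, 23 were used, in 8 groups by age, sex and genotype, and replicates were not duplicates of each other, since the closest of 22 pairs had a mean chi-square of 9.01 per gene. Genes with at least 10 normalized counts in 3 libraries were tested on log2(normalized count + 1) with limma 3.58.1 (R 4.3.3, trended variance, two-sided). One fit had age-by-genotype groups with sex as covariate and gave age, genotype and their interaction. Another had all 8 groups and gave sex and the contrasts within sexes. P-values were adjusted by Benjamini-Hochberg over all tested genes, and a gene was called under 0.05. Alternatives were other pseudocounts and filters, upper-quartile scaling, a replicate block, all 24 libraries, a fold limit, edgeR 4.0.16 and DESeq2 1.42.0 on the recovered reads, and each library left out. In old heads these count tests called 2198 and 2622 genes for genotype, against 2327 with limma. Removal of 3 sets of libraries was chosen after seeing the data.

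The members and gene lists were chosen with earlier results of these data known. Named are the members with a known role and, in each comparison, the called members with the largest absolute fold change, up to 10 higher and 10 lower, and genes of the neighbouring lists, of which some are not reported here. Other members are named as counts of 5 or fewer, shared calls or cluster neighbours, after their values were seen. Clans were assigned from the symbols. Symbols, positions and exon overlaps came from a dm6 annotation, which matched 17527 of 17606 gene IDs. Simulated counts with known changes in old H3.3BK36R heads, with means and spread taken from these data, were also tested. For genotype in old heads, 73% of 2-fold and 89% of 4-fold changes were recovered, and 13 of 175 calls were false. In old females 60% and 82% were recovered. The library depth limits genes under 10 normalized counts.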

Additional observations from a re-analysis of the deposited data

Results flagged for a closer look

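The change with age differed between the genotypes for 8 P450 genes in limma, by a test of the difference itself. On the log2 scale, H3.3BK36R minus H3.3Adelta, the values were -1.98 for Cyp4d1, -1.61 for Cyp4d21, 0.62 for Cyp4p2, 0.67 for Cyp4p1, 0.72 for Cyp6d4, 0.80 for Cyp9c1, 0.91 for Cyp4e2 and 1.04 for Cyp6a2. The change with age differed between the sexes for 3 genes, with female minus male values of 3.20 for Cyp304a1, 0.81 for Cyp9b1 and -1.05 for Cyp313a1. Cyp304a1 passed the filter on low values through old females, the group where it was high. Its value and its call therefore carry no weight, which leaves Cyp9b1 and Cyp313a1.

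Young male H3.3BK36R replicate 2, the library left out of the comparisons, held some P450 reads far above the other 23 libraries. Cyp4g1, the hydrocarbon enzyme of oenocytes, gave 86980.2 normalized counts there and at most 1831 elsewhere. Cyp312a1 gave 1067 against at most 118, Cyp6a18 gave 303.8 against at most 34.1, Cyp4d14 gave 183 against at most 47.0, and Cyp4ad1 gave 122 against at most 38.1.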

How the results depend on the processing

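The 32 higher and 3 lower P450 genes between genotypes in old heads stayed at 31 to 39 calls in all when single libraries were left out, and the ratio of summed counts at 1.48 to 1.63. The corresponding counts were 28 to 34 for age in H3.3Adelta, 33 to 42 for age in H3.3BK36R, 7 to 13 for genotype in young heads, 9 to 13 for sex in young heads and 22 to 30 for sex in old heads. For the other comparisons they were 4 to 11 for the age-by-genotype difference, 0 to 10 for the age-by-sex difference, 2 to 8 in young females, 2 to 8 in young males, 14 to 30 in old females, 10 to 22 in old males and 0 to 2 for the sex-by-genotype difference in young heads. Without the libraries with reads on silent genes, 1 gene was called for the age-by-genotype difference, 0 for the age-by-sex difference, 4 in young females and 1 in young males. Without the libraries with chorion reads the counts were 15 for sex in old heads, 0 for the age-by-sex difference and 8 in old males, and without the males with yolk protein reads 0 for the age-by-sex difference and 2 in young males. With all 24 libraries the counts were 5 for the age-by-sex difference, 5 in young females and 7 in young males, and with DESeq2 they were 7 for the age-by-sex difference and 7 in young males. An absolute log2 fold change above 1 left 2 genes in young females, 1 in young males, 10 in old females and 7 in old males. Without the chorion set 1 old male H3.3Adelta library is left, so the count in old males there carries no weight. Without the silent-gene set, the yolk protein set or either young male H3.3BK36R library, 1 young male H3.3BK36R library is left. Counts there that use young males rest on that library, and those in young males alone carry no weight. The ranges of 0 to 10, of 2 to 8 in young males and of 0 to 2 take an end from such counts. With fewer libraries in these fits or another test, the cause of the changes was not tested.

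Replicate numbers were not used as pairs in the main fits. Across groups, deviations from the group means correlated by 0.101 between libraries of the same number and by -0.0492 between others, a weak link by number. The 11 pairs that shared number, age and sex but not genotype had a mean of 0.0163. Of these 11, 3 exceeded 0.1 (range -0.346 to 0.331). With a replicate block 6 genes were called for the age-by-sex difference, and of 153 called results 4 lost and 6 others gained a call. Among the 153, the planned settings beside single libraries ended the call in 47 of 1368 values, single libraries in 279 of 3519 and the sets chosen after seeing the data in 95 of 459, and no value changed its direction. Pseudocounts of 0.5 and 5 ended no call, upper-quartile scaling ended 4, testing without a filter 10 and edgeR 14. Upper-quartile scaling moved the median of all genes to 0.10 for age in H3.3Adelta, from 0.04. With 3 libraries to a group, low genes and contrasts within a sex carried the widest errors.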
